A study of Sus scrofa with 24 samples.

Results

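Choroid plexus marker genes were followed in the hippocampus of 24 piglets. The members are 8 gene symbols, TTR, FOLR1, AQP1, OTX2, CLIC6, SLC4A5, PRLR and KL, chosen by name as genes known from the choroid plexus. They correspond to 9 of the 38882 genes in the count files, because 2 gene identifiers, 396784 and 397579, carry the symbol FOLR1. Of these 9 genes, 4 passed the filter on low counts used for the tests (at least 1 CPM in at least 3 libraries), namely TTR, FOLR1 (396784), SLC4A5 and KL.

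The choroid plexus is a vascular fold covered by a cuboidal epithelium that hangs into the ventricles and secretes cerebrospinal fluid. Its epithelium moves sodium, bicarbonate and water into the ventricle, carries folate and hormones from blood to brain, and secretes transthyretin, the product of TTR. In the lateral ventricle it is attached along the fimbria of the hippocampus, so a hippocampal dissection can carry more or less of it. Bulk RNA from such a piece holds the RNA of all its cells, and fewer cells of a type and less RNA per cell cannot be told apart.

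The piglets were crossbred offspring of PIC Camborough dams and PIC 359 sires, and all were 14 days of age. They were small (SGA) or appropriate (AGA) for gestational age at birth, and received a control formula (CON) with intact triglycerides or a hydrolyzed fat formula (HF), in which part of the fat was supplied as free fatty acids, monoacylglycerol and lecithin. The 4 groups AGA CON, SGA CON, AGA HF and SGA HF held 6 piglets each. Every SGA piglet had an AGA littermate on the same diet, giving 12 litters, of which replicates 1 to 3 of each group belonged to cohort 1 and replicates 4 to 6 to cohort 2. Each litter thus held both sizes and 1 diet, and the fits below carry no litter term unless one is named. Diet differed only between litters, so p-values for diet without a litter term count littermates as independent and overstate the replication.

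Library totals over the listed genes lay between 6017336 and 9284355 counts, with a median of 7346072.5, so that 3 counts corresponded to 0.323 to 0.499 CPM. Genes of hippocampal neurons were abundant. SLC17A7, the vesicular glutamate transporter of principal neurons, averaged 3380 CPM, NEUROD2 480.0 CPM, and PROX1, which marks dentate granule cells, 48.2 CPM. ZBTB20 and CALB1 of the same list were at 0.0356 and 0.604 CPM. The summed CPM of that list was lowest in AGA CON replicate 2 (2044, against up to 5650 in the other libraries).

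The members differed widely in level. On the scale of CPM per kilobase of exon, which allows genes to be compared, TTR averaged 36.9 and FOLR1 (396784) 21.6. All other members were below 0.5 on that scale, with FOLR1 (397579) at 0.408, KL at 0.263, SLC4A5 at 0.262, AQP1 at 0.166, OTX2 at 0.160, CLIC6 at 0.101 and PRLR at 0.00669. Among these, KL and SLC4A5 had nearly the same mean, and their ranges over the libraries overlapped. TTR and FOLR1 (396784) also overlapped, since TTR ranged from 2.83 to 251 CPM per kilobase and FOLR1 (396784) from 10.4 to 43.5.

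**Figure D1:**
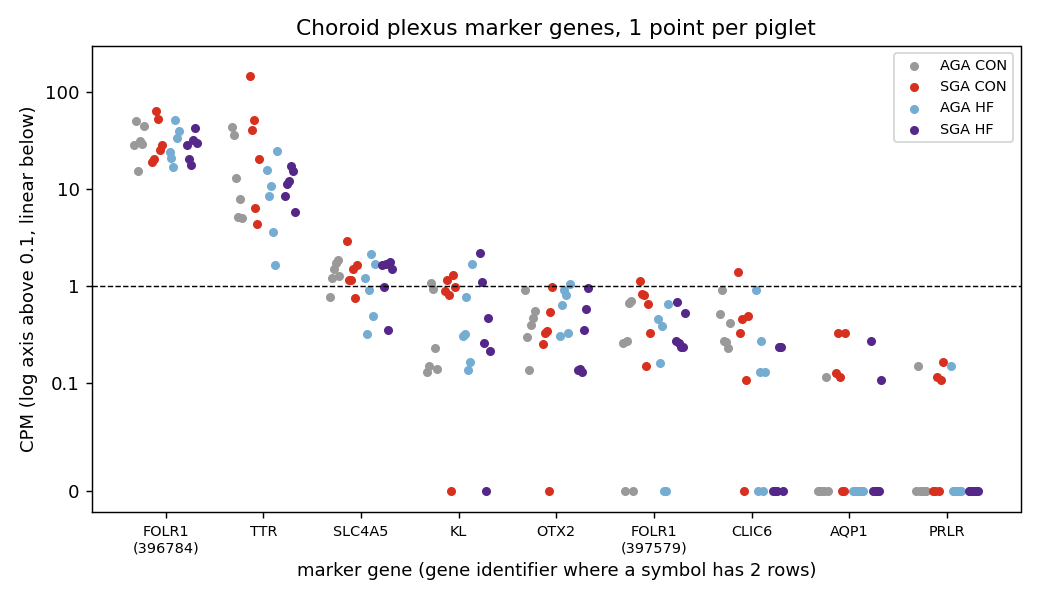
CPM (vertical axis, logarithmic above 0.1 and linear below) of the 9 choroid plexus marker genes (horizontal axis, by mean level) in the 24 libraries, 1 point per piglet, coloured by group. FOLR1 (396784) and TTR are the 2 genes above 1 CPM (dashed line) in all libraries, and AQP1 and PRLR are at 0 in 17 and 19 libraries.

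TTR encodes transthyretin, the carrier of thyroxine and of retinol-binding protein in cerebrospinal fluid. The gene lies on chromosome 6 from 108123921 to 108131547 on the forward strand in Sscrofa10.2, with 4 exons and 583 exonic bases. TTR was counted in every library, from 1.65 CPM (10 counts) in AGA HF replicate 5 to 146 CPM (1161 counts) in SGA CON replicate 1, an 88.9-fold range. The standard deviation of its log2 CPM over the 24 libraries was 1.41, against a median of 0.28 over all genes tested. It was above that of 99.4% of the genes tested and above that of 99.7% of the 2158 genes within 0.5 log2 units of its mean level.

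The highest TTR values stood in the SGA CON group. TTR ranged from 4.33 to 146 CPM in SGA CON piglets, with a median of 30.6 (mean 45.0 ± 53.1 SD, n = 6). In AGA CON piglets it ranged from 5.04 to 43.5 CPM, with a median of 10.4 (mean 18.5 ± 17.0). In the HF groups the ranges were lower at the top, from 1.65 to 24.6 CPM in AGA piglets (median 9.67, mean 10.8 ± 8.42) and from 5.76 to 17.2 CPM in SGA piglets (median 11.8, mean 11.7 ± 4.23). All 4 groups overlapped.

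Between littermates, TTR was higher in the SGA piglet in 9 of 12 pairs, in 5 of 6 on CON and in 4 of 6 on HF. The fold of SGA over AGA ran from 0.242 in HF replicate 6 to 8.10 in HF replicate 5. On CON, the SGA piglets of replicates 1, 3 and 6 had 3.35, 3.95 and 3.92 times the TTR of their littermates, whereas the other 3 pairs lay between 0.556 and 1.22. The mean log2 difference over the 12 pairs was 0.68 ± 1.51 (SD), so that the spread among litters exceeded the mean.

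**Figure D2:**
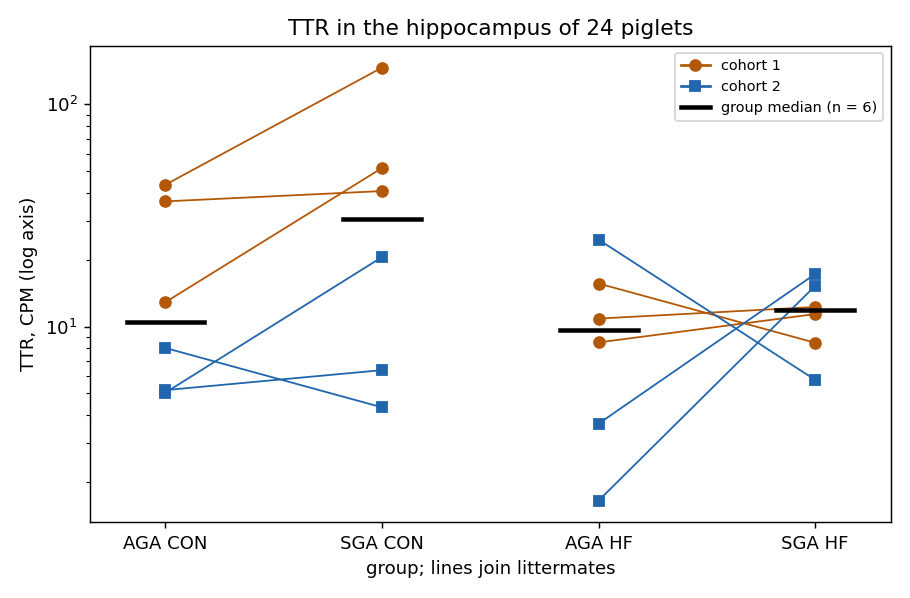
TTR in CPM (logarithmic axis) in the 4 groups of 6 piglets. Lines join littermates, colour and symbol give the cohort, and black bars are group medians; SGA CON replicate 1 is at 146 CPM, and the 6 CON piglets of cohort 1 hold the 5 highest values of the study.

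In the fit across all genes tested, no member was called for size or diet. With edgeR's quasi-likelihood test on the groups, sex and 5 surrogate variables, and a Benjamini-Hochberg adjusted p (FDR p) under 0.4 as the call, 0 of 4 members were called for size, where 0.478% of the 16326 genes tested were. They were 0 of 4 also for diet (0.159% of genes), for the interaction (0.049%), for SGA minus AGA on CON (0.129%) and on HF (0.288%), and for HF minus CON in AGA (0.0674%) and SGA piglets (0.0919%). At an unadjusted p under 0.05, 1 of 4 members (SLC4A5) passed for diet, where 7.09% of all genes did, and 1 of 4 (TTR) for HF minus CON in SGA piglets, where 5.16% did. None passed for size (10.6% of genes), the interaction (4.01%), SGA minus AGA on CON (6.59%) and HF (8.02%), or HF minus CON in AGA piglets (6.09%). In no pair of groups did a member separate them without overlap, which 0.368% of genes did for SGA and AGA on CON, 0.374% on HF, and 0.135% and 0.165% for HF and CON in AGA and SGA piglets. The limma voom fit also called no member. DESeq2 called none where it gave an adjusted p, but it gave none to any of the 4 members for size, for SGA minus AGA on HF and for HF minus CON in AGA piglets, nor to KL and SLC4A5 for SGA minus AGA on CON.

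For TTR the fitted log2 difference was 0.39 ± 0.52 (SE) for SGA minus AGA (edgeR, adjusted p = 0.932) and −0.96 ± 0.53 for HF minus CON (adjusted p = 0.777). The largest pairwise value was −1.48 ± 0.70 for HF minus CON in SGA piglets (unadjusted p = 0.0459, adjusted p = 0.725). All 3 turned sign without SGA CON replicate 1, to −0.38 for size, 0.21 for diet and 0.24 for HF minus CON in SGA piglets, and the size estimate was also at −0.00484 without SGA HF replicate 5. For SGA minus AGA on HF the estimate was −0.13, and 0.27 with a litter block. Over the 24 fits that each left out 1 library, the size estimate ran from −0.38 to 1.15 and the diet estimate from −1.27 to 0.21.

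The TTR levels of CON piglets were also set out by cohort. The 6 CON piglets of cohort 1 had 12.9 to 146 CPM (mean 55.3 ± 46.5 SD), and the 6 CON piglets of cohort 2 had 4.33 to 20.6 CPM (8.24 ± 6.16). On HF, the means were 11.2 ± 2.67 CPM in cohort 1 and 11.4 ± 9.06 CPM in cohort 2, and the ranges overlapped. As litter means, TTR was 95.0, 38.7 and 32.3 CPM in the CON litters of cohort 1 and 12.0, 9.93 and 11.6 CPM in its HF litters, which did not overlap. Of the 16326 genes tested, 11.4% had litter means that did not overlap between the diets in cohort 1, and 8.96% in cohort 2. In cohort 2 the TTR means of the CON litters, at 5.77, 6.17 and 12.8 CPM, and of the HF litters, at 10.4, 8.44 and 15.2 CPM, overlapped.

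With cohort 1 fitted alone, HF minus CON for TTR was −2.14 on the log2 scale (edgeR, unadjusted p = 1.83e-05, adjusted p = 0.676), and with cohort 2 alone it was 0.53 (unadjusted p = 0.335, adjusted p = 0.936). Neither passed the threshold, and both fits counted littermates as independent piglets. The counts of littermates were then summed and the 12 litters fitted in edgeR with diet, sex and cohort, a fit chosen after the data were seen. In the fits of litter sums each contrast was adjusted alone, not over all 7 contrasts. TTR was lower in cohort 2, at −1.35 ± 0.51 (SE; adjusted p = 0.314), in a comparison in which 9.13% of 15474 genes were called. Leaving out 1 litter at a time gave −1.72 to −0.83, and the call was lost in 5 of the 12 fits, those without the litters of HF replicate 2 or of CON replicates 2, 4, 5 or 6. The diet-by-cohort interaction of TTR was 2.87 ± 0.52 (unadjusted p = 8.19e-05), but its adjusted p of 0.422 did not pass, in a comparison in which 0.0129% of genes were called. It stayed between 2.23 and 3.34 when 1 litter was left out, and passed in 4 of those 12 fits, with an adjusted p of 0.0844 without the litter of SGA CON replicate 1. Cohort accounted for 30.1% of the variance of TTR over the libraries, against a median of 3.98% over all genes tested.

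FOLR1 encodes the folate receptor alpha, which takes up folate at the choroid plexus. The 2 genes of this symbol are neighbours on chromosome 9, FOLR1 (396784) from 7507501 to 7511918 and FOLR1 (397579) from 7515002 to 7521923, both on the forward strand, and reads that fit both could have been lost from either. FOLR1 (396784) ranged less than TTR, at 15.5 to 64.4 CPM over all libraries, a 4.17-fold range. The standard deviation of its log2 CPM was 0.56, above that of 84.7% of the genes tested and of 99.0% of the 2226 genes of like level. Its mean was 33.3 ± 12.4 CPM (SD, n = 6) in AGA CON and 35.3 ± 19.0 in SGA CON piglets. On HF it was 31.1 ± 13.0 CPM in AGA and 28.6 ± 8.89 in SGA piglets, and the groups overlapped. The SGA littermate was higher in 5 of 12 pairs, with folds from 0.416 to 4.11.

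The fitted log2 differences of FOLR1 (396784) were 0.17 ± 0.17 (SE) for size and −0.10 ± 0.18 for diet (edgeR, adjusted p = 0.907 and 0.954), and with a litter block the size estimate was −0.0408. Unlike TTR, it had a higher mean in cohort 2 (36.8 ± 9.36 CPM) than in cohort 1 (27.3 ± 14.9), a difference of 0.40 ± 0.19 between litter sums that did not pass (adjusted p = 0.438). FOLR1 (397579) had 75 counts in all, 0 in 4 libraries, and reached its highest value of 1.14 CPM in SGA CON replicate 1.

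The members of ion and water transport were low. SLC4A5, a sodium bicarbonate cotransporter of the ventricular face of the epithelium, lies on chromosome 3 from 71905020 to 71977516. It had 2 to 23 counts per library, and its highest value, 2.90 CPM, was again in SGA CON replicate 1, whose AGA littermate had 0.777 CPM. On CON its median was 1.38 CPM in AGA and 1.34 in SGA piglets, and on HF 1.06 in AGA and 1.56 in SGA piglets, with overlapping ranges. Its fitted difference was −0.68 ± 0.31 (SE) for diet (edgeR, unadjusted p = 0.0395, adjusted p = 0.713) and 0.39 ± 0.30 for size (adjusted p = 0.860), and the SGA littermate was higher in 6 of 12 pairs.

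AQP1, the water channel of the apical membrane, had 10 counts in the whole study and none in 17 libraries. Its gene model in the annotation used for counting is on an unplaced scaffold and covers 351 exonic bases, and no level of AQP1 in the tissue was read from it. CLIC6, an intracellular chloride channel protein enriched in choroid plexus epithelium (chromosome 13, 208079952 to 208131097), had 54 counts, with none in 7 libraries and a highest value of 1.39 CPM (11 counts) in SGA CON replicate 1. Of its 54 counts, 40 were in CON and 14 in HF piglets. It did not pass the filter. Fitted without the filter, its diet difference was −1.50 (edgeR, unadjusted p = 0.0312, adjusted p = 0.702).

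OTX2 is the transcription factor that specifies the choroid plexus and keeps its epithelium differentiated. On the reverse strand of chromosome 1 from 206642523 to 206650665, it had 88 counts over the study and at most 1.05 CPM, in AGA HF replicate 6. A second annotated gene overlaps it on the other strand, and the authors counted with strand. Its mean was 0.461 CPM in AGA and 0.409 in SGA piglets on CON, and 0.673 in AGA and 0.384 in SGA piglets on HF, values near the level of 3 counts.

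KL and PRLR act in hormone signalling at the blood to cerebrospinal fluid barrier. KL encodes klotho, a co-receptor for FGF23 that is also shed into the fluid, and lies on chromosome 11 from 9357470 to 9390509. It had 0 to 2.18 CPM, with the highest value in SGA HF replicate 1 and none in SGA CON replicate 4 and SGA HF replicate 4. An annotated gene overlaps it on the same strand, so its counts are less certain. Median KL was 0.191 CPM in AGA and 0.935 in SGA piglets on CON, and 0.312 in AGA and 0.363 in SGA piglets on HF. The SGA littermate was higher in 7 of 12 pairs, and the fitted differences were −0.10 ± 0.42 (SE) for size and −0.47 ± 0.44 for diet (edgeR, adjusted p = 0.984 and 0.895). The size estimate of KL had no steady sign: it was 0.54 with a litter block, 0.56 without surrogate variables and 0.53 with cohort in their place, and ran from −0.46 to 0.24 when 1 library was left out, turning sign in 6 of those 24 fits. PRLR, the prolactin receptor (chromosome 16, 21520678 to 21569349, reverse strand), had 5 counts in all, never more than 1 in a library, and was not detectable at this depth in 19 libraries.

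**Figure D3:**
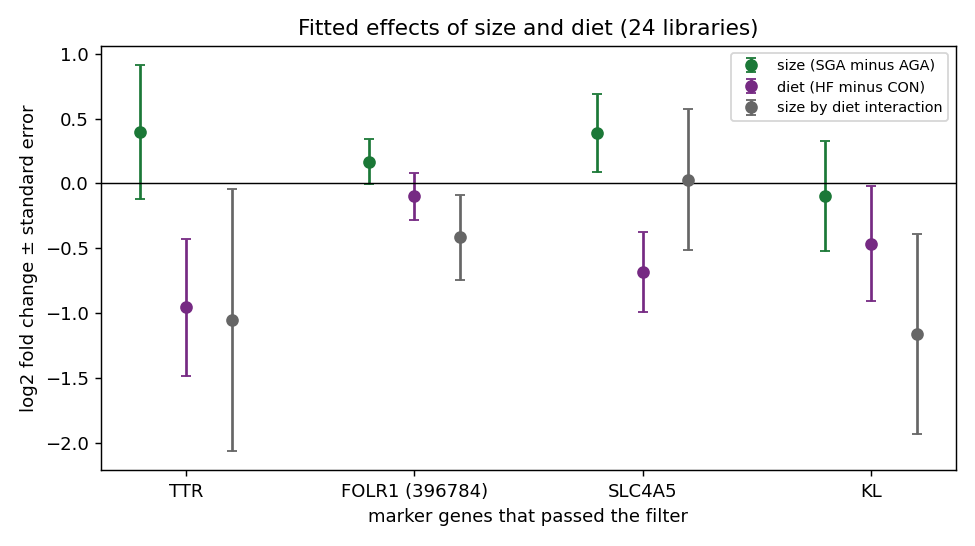
Fitted log2 fold changes with standard errors (vertical axis) for the 4 members that passed the filter (horizontal axis), for size, diet and their interaction over 24 libraries. The TTR diet estimate of −0.96 and the SLC4A5 diet estimate of −0.68 lie farthest below 0 among the main effects, and none of the 12 estimates passed the FDR threshold.

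Whether the members varied together across piglets was examined by correlating each with TTR over the 24 libraries, on log2 CPM. Of the 8 relations, 1 held after adjustment, that with CLIC6 (r = 0.66, permutation p = 0.00039, Benjamini-Hochberg adjusted p = 0.00312; rho = 0.60, permutation p = 0.00228, adjusted p = 0.0182). Within cohorts it was 0.81 in cohort 1 (permutation p = 0.00188) and 0.41 in cohort 2 (permutation p = 0.186), with 12 piglets each. Without the 2 libraries farthest from the median TTR level, SGA CON replicate 1 and AGA HF replicate 5, r was 0.50 (permutation p = 0.0185, adjusted p = 0.148), so that the adjusted call rested on those 2 libraries. Over the 12 litter means r was 0.75 (permutation p = 0.00399, adjusted p = 0.0319) and rho 0.50 (permutation p = 0.0985, adjusted p = 0.300), so that the call held for r and not for rho. CLIC6 had at most 11 counts in a library, and libraries at 0 share 1 value.

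The relations of the other members with TTR did not pass. FOLR1 (397579) had r = 0.47 (rho = 0.38), with permutation p of 0.0216 and 0.0673 and adjusted p of 0.0863 and 0.269. For SLC4A5, r was 0.22 and rho −0.003 (permutation p = 0.292 and 0.992), and without the 2 farthest libraries r was −0.17. KL had r = 0.23 and rho = 0.18 (permutation p = 0.281 and 0.402). FOLR1 (396784), the other abundant member, had r = −0.10 and rho = −0.16 (permutation p = 0.628 and 0.441), with 0.36 in cohort 1 and −0.06 in cohort 2. AQP1, PRLR and OTX2 had r of 0.33, 0.24 and −0.02, from 10, 5 and 88 counts in all. The adjusted p of r for these 7 members lay between 0.0863 and 0.928.

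**Figure D4:**
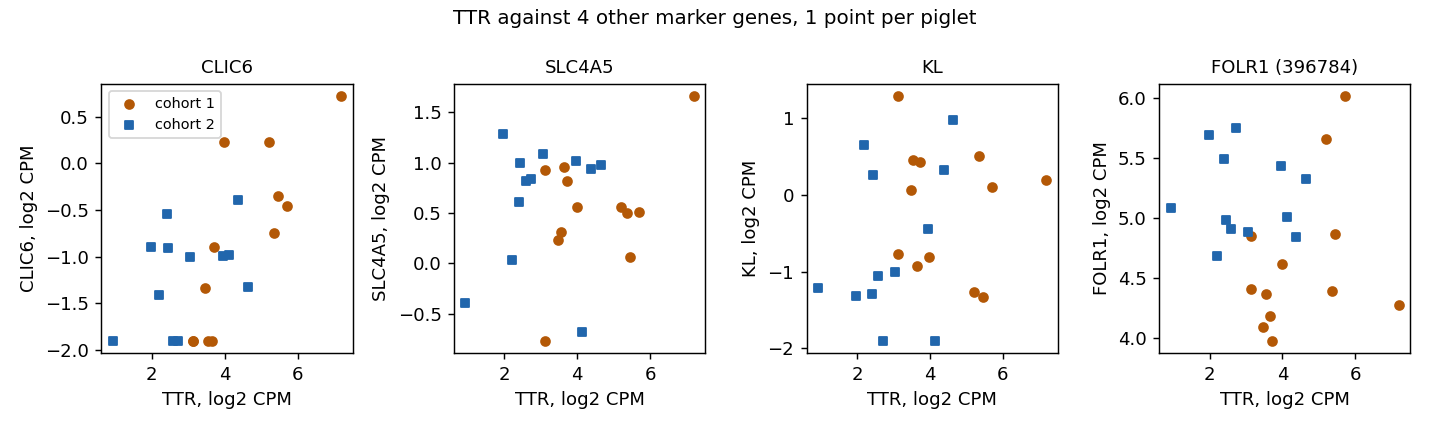
Log2 CPM of CLIC6, SLC4A5, KL and FOLR1 (396784) (vertical axes) against that of TTR (horizontal axes), 1 point per piglet, by cohort. CLIC6 shows r = 0.66 over the 24 libraries and FOLR1 (396784) r = −0.10; the point farthest right in each panel is SGA CON replicate 1.

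The log2 CPM of the 4 members that passed the filter was centred on each gene's mean and averaged per library, as a level of the members. The other 3 did not closely follow TTR, with r of −0.10 for FOLR1 (396784), 0.22 for SLC4A5 and 0.23 for KL. FOLR1 (396784) had r of 0.07 with the level itself. The level is therefore not shown to gauge the choroid plexus RNA in a dissection. This level was highest in SGA CON replicates 1 and 3 (1.14 and 0.89) and AGA HF replicate 6 (0.79), and lowest in AGA HF replicate 5 (−1.09). On CON the mean level was −0.03 ± 0.25 (SD, n = 6) in AGA and 0.38 ± 0.61 in SGA piglets, and on HF −0.27 ± 0.63 in AGA and −0.09 ± 0.37 in SGA piglets, with overlapping ranges. TTR set much of it. Without TTR the group means were −0.04, 0.22, −0.13 and −0.05, and AGA CON replicate 1, behind SGA CON replicates 1 and 3 the highest by TTR, had −0.49 by the other 3 members.

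The genes most like this level among the other genes tested were CCDC71L (r = 0.81), MFRP (0.69), SPRY2 (0.69), IGF2R (0.68), SUPT20H (0.67), RALGAPB (0.67), MDN1 (0.66), SLC7A1 (0.65), PDPK1 (0.65) and FBXO15 (0.64), over the 24 libraries and as a description. MFRP, a membrane frizzled-related protein known from retinal pigment epithelium and choroid plexus, had the highest r with TTR itself (0.72, and 0.63 without the 2 farthest libraries). It had 94 counts over the study. Its highest value, 3.15 CPM, was in SGA CON replicate 1, and its mean was 1.20 ± 1.09 CPM (SD, n = 6) in SGA and 0.373 ± 0.365 in AGA piglets on CON, and 0.232 ± 0.144 in SGA and 0.277 ± 0.236 in AGA piglets on HF. For HF minus CON in SGA piglets its fitted difference was −2.45 ± 0.70 (edgeR, adjusted p = 0.466), which did not pass.

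A wider list of choroid plexus genes did not move with TTR as a list. Of its 24 symbols 21 were found and 14 tested, and their median r with TTR was −0.02, where the median over all genes tested was 0.001. MFRP was the 1 gene of 14 above 0.5, which 0.821% of all genes were. ENPP2 (autotaxin), SLC29A4 (a monoamine transporter), IGF2 and IGFBP2 were the most abundant of the list, at 73.3, 53.6, 41.7 and 23.0 CPM per kilobase. Other cells of brain and meninges also express these genes. Of genes more specific to the epithelium, SOSTDC1 and CLDN1 had 0 counts in the study, KCNE2 had 1 and TMEM72 had 10. KCNJ13, a potassium channel of the same epithelium, was counted in every library, at 3.79 to 12.1 CPM (mean 7.42, 1327 counts in all), and its r with TTR was 0.11. The summed CPM of the list ranged from 400.4 to 719 and was lowest in an SGA CON library. ENPP2 made up much of this sum, with a mean of 265 CPM over all libraries and 219 CPM in SGA CON piglets. Its r with TTR was −0.45. Whether the sum follows ENPP2 more than the rest of the list was not tested. The summed members reached at most 172 CPM, in an SGA CON library. None of the 14 was called in any of the 7 contrasts.

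**Figure D5:**
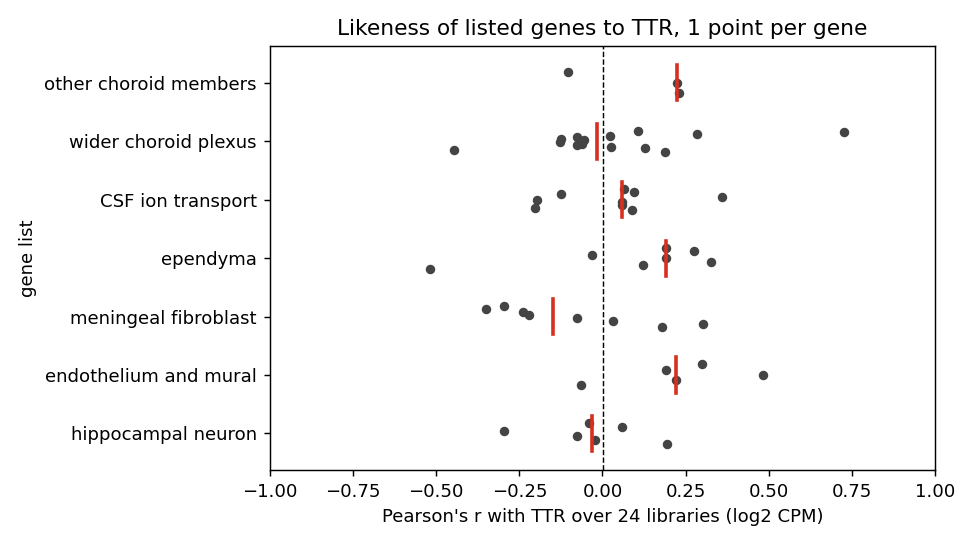
Pearson's r with TTR over 24 libraries (horizontal axis) for the tested genes of 7 lists (vertical axis), 1 point per gene, with list medians as red bars and the median over all genes tested, 0.001, as a dashed line. The wider choroid plexus list is centred near 0 (median −0.02), with MFRP at 0.72.

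The other genes of the pathways in which the members act were read from lists. None of the 9 tested genes of ion transport into cerebrospinal fluid was called for diet, and all 9 had a negative diet estimate (median −0.08). ATP1B1, a subunit of the sodium pump, was at 348 CPM per kilobase and CA14, a carbonic anhydrase, at 30.2, and neither was called in any contrast. No gene was called in any contrast among the 8 of thyroid hormone and retinol carriage, to which TTR's partner RBP4 (37.0 CPM per kilobase) and the receptor THRA (253) belong. Nor was any among the 5 of folate uptake, with FOLR2 at 9.64 and SLC19A1 at 8.18 CPM per kilobase. The same held for the 4 tested genes of prolactin receptor signalling, where STAT5B was at 8.56, and for the 3 tested partners of klotho, where FGFR1 was at 51.1 and FGF23 had 0 counts.

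Markers of neighbouring tissue were read beside TTR. Of the 7 tested genes of ependyma, the ciliated lining of the ventricles, 1 was called. It was called for size, where 0.478% of all genes tested were, and for SGA minus AGA on HF, where 0.288% were. FOXJ1, the regulator of motile cilia, was higher for size by 0.52 ± 0.11 (SE; edgeR, adjusted p = 0.224) and on HF by 0.59 ± 0.15 (adjusted p = 0.382), whereas TPPP3, CCDC153 and AK7 were not called. When 1 library was left out, FOXJ1 was called for size in 22 of 24 fits, but not without AGA CON replicate 1 (adjusted p = 0.444) or SGA HF replicate 5 (adjusted p = 0.523), and on HF in 10 of 24, with an adjusted p of 0.153 to 0.635. The median r of the list with TTR was 0.19. TPPP3 had the lowest r of the list, −0.52, and with a mean of 156 CPM made up much of its summed CPM. For the 8 tested genes of meningeal fibroblasts the median r was −0.15, for the 5 of endothelium and mural cells 0.22, for the 3 of red blood cells 0.13, for the 2 of thalamus 0.04 and for the 6 of hippocampal neurons −0.03, with no gene called in any contrast. The summed CPM of ependymal genes ranged from 195 to 277 in AGA and 210.1 to 256 in SGA piglets on CON, and from 214 to 265 in AGA and 226 to 307 in SGA piglets on HF, and that of meningeal genes from 152 to 295 over all libraries. Their part in the TTR values was not tested.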

How the data were processed

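Single-end RNA sequencing reads were trimmed with Trimmomatic 0.33, aligned to Sscrofa10.2 with STAR 2.5.2a and counted with strand on exons by featureCounts (Subread 1.5.0). The authors deposited these whole-number counts per gene and library, without normalization. An entry without an identifier (0.613 to 1.62% of reads) was left out. Symbols were matched by gene identifier to a table of Sscrofa11.1 (23036 of 38882 identifiers found), and coordinates are those deposited. Pig sequences of the members were not used here.

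Members and gene lists were chosen with earlier results of these data known. The filter was 1 CPM or more in 3 or more libraries, which 16326 genes passed. Counts were TMM-normalized and fitted in edgeR 4.0.16 (R 4.3.3) by quasi-likelihood on the 4 groups, sex and 5 surrogate variables (sva 3.50.0). The Benjamini-Hochberg adjustment covered all 7 contrasts in the main fit. With litter sums each contrast was adjusted alone, and with a litter block only the contrasts fitted there were covered. An FDR p under 0.4, the threshold of the study's heat map, was the call. At this threshold up to 40% of calls may be false. The common biological coefficient of variation was 0.117. Log2 CPM used a prior count of 2. Correlations were tested two-sided with 100000 permutations and adjusted over 8 relations.

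All members are named. Of each other list the text names called genes and some of the 4 most abundant per kilobase. Genes at or near 0 and further genes of the lists were chosen after their values were seen. The 10 genes most like the averaged level of the members that passed the filter exclude placeholder symbols. Littermates share litter labels, and their deviations from group means correlated at 0.154 on average over 12 pairs (0.0144 to 0.329). Alternatives were other normalization (DESeq2 size factors), filters, DESeq2 1.42.0, limma 3.58.1 voom, other covariates, a litter block, single cohorts and leaving out each library. Fits of FOXJ1 and GH1 without each library and the background of litter means were added after the data were seen. Floors of 3 counts cover counting error only. A few listed genes, called ones included, are left out of the text.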

Additional observations from a re-analysis of the deposited data

Results flagged for a closer look

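TTR in SGA CON replicate 1, at 146 CPM, stood apart from the other 5 SGA CON libraries, which lay between 4.33 and 51.7 CPM. Its gap to the next library was 0.667 of the group's range, where Dixon's 95% critical value for 6 samples is 0.625. On the log2 scale the gap was 0.299 of the range, below that value, so that the library did not stand apart there. It was the 1 library that stood apart in 20 checks, of each tested member and of their averaged level in each group. The level shares its values with the members, and chance gives about 1 in 20. In the same library FOLR1 (397579), CLIC6, SLC4A5 and MFRP also had their highest values of the study (1.14, 1.39, 2.90 and 3.15 CPM), while FOLR1 (396784) was at 19.0 CPM, the lowest of its group. KL was at 0.883 CPM there, against up to 2.18 in the study, OTX2 at 0.252, AQP1 at 0.126 and PRLR at 0. MFRP was named for its r with TTR in these libraries, so its value here is no separate evidence.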

How the results depend on the processing

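No member was called for size, diet or their interaction, or within a size or diet, in any contrast fitted under the other settings or in the 24 fits that left out 1 library. The lowest FDR p was 0.55 over 16 results. These were size, diet and interaction for each tested member, and the pairwise contrasts for TTR alone. DESeq2 gave some members no adjusted p, litter sums were fitted for diet and cohort, and the litter block covered contrasts with size in edgeR and those of diet, as a random term, in limma voom. The block changed no call, but turned the size estimates of FOLR1 (396784) to −0.0408 and KL to 0.54, and that of TTR on HF to 0.27. Without surrogate variables, FOLR1 (396784) was at −0.00468 and KL at 0.56 for size, KL at 0.0318 for diet and TTR on HF at 0.0705. With cohort in their place, KL was at 0.53 for size and TTR on HF at 0.18. The limma voom estimate of TTR for size on HF was 0.0817, and without a filter the SLC4A5 interaction was −0.00676.

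In cohort 1 alone, KL was at 1.14 for size, 0.20 for diet and 0.24 for the interaction. In cohort 2 alone, size was at −0.37 for SLC4A5, −0.13 for FOLR1 (396784) and 0.41 for TTR on HF, and diet at 0.53 for TTR, 0.12 for FOLR1 (396784), 0.65 for TTR in AGA and 0.40 for TTR in SGA piglets. Leaving out 1 library moved TTR between −0.38 and 1.15 for size, −1.27 and 0.21 for diet, −1.86 and 0.0645 for the interaction, −0.41 and 1.89 for size on CON, −0.74 and 1.12 for size on HF, −1.24 and 0.17 for diet in AGA, and −1.85 and 0.24 for diet in SGA piglets. It moved KL for size between −0.46 and 0.24, FOLR1 (396784) for diet between −0.19 and 0.0102, and the SLC4A5 interaction between −0.33 and 0.43. The causes were not tested.

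The number of members correlated with TTR after adjustment, 1 in all libraries, was 0 in cohort 2 alone and 0 without the 2 libraries farthest from the median. The sign of r turned for FOLR1 (396784) in cohort 1 (0.36) and without those 2 libraries (0.0611), for OTX2 in cohort 1 (0.10), in cohort 2 (0.32) and without those 2 (0.0305), for KL in cohort 1 (−0.13) and for SLC4A5 without those 2 (−0.17). Depth limits the low members: AQP1 and PRLR never exceeded 3 counts, and CLIC6, FOLR1 (397579), OTX2 and KL were at or under 3 counts in 19, 15, 13 and 12 libraries.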

Other observations

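Of the anterior pituitary list, GH1 (growth hormone), PRL, CGA and POMC had their highest values in SGA HF replicate 4, at 306, 7.37, 7.13 and 48.7 CPM. POU1F1 of the same list had 0 counts in all 24 libraries. GH1 was the 1 of 2 tested pituitary genes called, for HF minus CON in SGA piglets (7.38 ± 1.02 SE on the log2 scale, edgeR, adjusted p = 0.0181). In that contrast 0.0919% of all genes tested were called. GH1 had 0 counts in 13 libraries. The call rested on single libraries: GH1 was at 0.107 to 1.91 CPM in the other 5 SGA HF piglets, and without SGA HF replicate 4 the estimate was 4.45 (adjusted p = 0.552), and without AGA HF replicate 2 it was 9.90 (adjusted p = 0.515). TTR in that library was 17.2 CPM and SLC4A5 0.356 CPM. AGA CON replicate 2, the library with the lowest summed hippocampal neuron genes, had the highest values of CLDN5 (128 CPM), PECAM1 (41.1), FLT1 (87.0) and AQP4 (27.9). Its TTR was 36.6 CPM. RGS5 and PDGFRB, also of the list of endothelium and mural cells, were highest elsewhere, at 55.9 CPM in SGA CON replicate 6 and 73.3 in AGA HF replicate 4. AQP4 is from the list of ion transport, whose other genes had their highest values in other libraries.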
